A study of Mus musculus with 6 samples.

Results

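The circadian clock genes examined here are Nr1d1, Nr1d2, Dbp, Tef, Arntl, Clock, Cry1, Cry2, Per1 and Per2, all read in the hippocampus. They were taken by symbol: every probe set annotated to exactly 1 of these genes was used. This gave 16 probe sets for 10 of 10 genes, among 22690 probe sets in the table and 20393 with 1 gene symbol. Arntl is the gene for BMAL1. RNA of 2-month-old C57BL/6J males was read on 6 Affymetrix arrays. The labels name 3 of them Rsk2-KO and 3 WT, the latter from normal littermates, and each was a pool of 2 hippocampi. The labels do not say how the Rsk2 allele was made, whether pools share animals, or at what time of day or under which light schedule the mice were killed. The study asked which molecular pathways differ between the genotypes.

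Rsk2, encoded by the X-linked gene Rps6ka3, is a kinase of the ERK pathway. Among its known targets is CREB, a transcription factor that induces Per1 after light or neuronal activity. The clock itself is a feedback loop that runs in most tissues, the hippocampus included. CLOCK and BMAL1 pair and bind E-box sequences, which switches on the period and cryptochrome genes; PER and CRY proteins then return to the nucleus and silence CLOCK and BMAL1. In a second loop CLOCK and BMAL1 switch on Nr1d1 and Nr1d2. Their products, the nuclear receptors REV-ERB alpha and REV-ERB beta, repress Arntl and other genes through ROR elements (RORE). The clock passes its rhythm on through Dbp and Tef, transcription factors of the PAR bZIP family that bind D-box sequences.

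Letters that match the known binding motifs of these factors were looked for near the start sites of the members. RefSeq windows of 300 bases (250 before and 50 after an annotated start, build GRCm38.p6) were held for 9 of 10 members, 14 windows in all; Per2 is named only. Both strands were searched for the E-box CACGTG, its variant CACGTT, the RORE core AGGTCA, the D-boxes TTATGTAA and TTACGTAA, and the full CREB site TGACGTCA. A match is a description of letters, not a measured site. The E-box was in 4 of 14 windows, against 7.15% of all 32851 windows in the table, and the variant in 3, against 4.68%. The RORE core was in 4, against 16.3%. The D-boxes (0.938% and 0.119% of all windows) and the CREB site (1.79%) were in 0 of the 14. The 250 bases before the start are shown for Nr1d2 and for both starts of Tef, since these genes had a probe set whose groups did not overlap; capitals mark the RORE core in Nr1d2 and the E-box in Tef. Arntl, the other such gene, had its match after the start and is shown with the rest.
Nr1d2 (chr14:18239107-18239356, minus strand): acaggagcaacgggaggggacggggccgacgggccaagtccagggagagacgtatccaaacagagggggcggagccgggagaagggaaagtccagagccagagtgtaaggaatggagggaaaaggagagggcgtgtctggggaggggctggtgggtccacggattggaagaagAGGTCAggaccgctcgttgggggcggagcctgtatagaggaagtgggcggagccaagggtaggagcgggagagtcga
Tef, first start (chr15:81802423-81802672, plus strand): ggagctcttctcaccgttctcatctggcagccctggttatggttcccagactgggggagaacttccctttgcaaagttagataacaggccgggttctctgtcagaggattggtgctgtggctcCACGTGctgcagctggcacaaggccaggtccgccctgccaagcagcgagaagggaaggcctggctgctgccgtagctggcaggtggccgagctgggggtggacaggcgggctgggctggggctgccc
Tef, second start (chr15:81811164-81811413, plus strand): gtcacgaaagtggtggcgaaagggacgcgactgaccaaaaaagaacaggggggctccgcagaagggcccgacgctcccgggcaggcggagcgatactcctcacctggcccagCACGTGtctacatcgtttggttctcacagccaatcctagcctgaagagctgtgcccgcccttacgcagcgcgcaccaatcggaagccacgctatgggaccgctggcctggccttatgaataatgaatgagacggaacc
The RORE core of Nr1d2 began 77 bases before its start, and the E-boxes of Tef began 127 and 138 bases before theirs. Matches of the other members are shown in 30 bases each, with the matched letters in capitals; AACGTG and TGACCT are CACGTT and AGGTCA read on the other strand.
Arntl, second start, RORE core (chr7:113207530-113207559, plus strand): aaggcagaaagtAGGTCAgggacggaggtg
Cry1, E-box (chr10:85185097-85185126, minus strand): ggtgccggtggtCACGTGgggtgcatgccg
Cry1, E-box variant (chr10:85185116-85185145, minus strand): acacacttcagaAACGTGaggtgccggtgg
Cry2, E-box variant (chr2:92434218-92434247, minus strand): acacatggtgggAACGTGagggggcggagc
Per1, first start, E-box (chr11:69098771-69098800, plus strand): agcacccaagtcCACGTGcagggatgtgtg
Per1, first start, RORE core (chr11:69098800-69098829, plus strand): gtgacacagcccTGACCTcagtgggggcca
Nr1d1, E-box variant (chr11:98775388-98775417, minus strand): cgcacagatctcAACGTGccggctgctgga
Clock, last start, RORE core (chr5:76303604-76303633, minus strand): agctttggcctcTGACCTgacagatgacag
The Arntl match lay after its start, from base 32. Dbp had none of these letters in its window.

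Values below are MAS5 signals, a background-corrected brightness per probe set on a linear scale, and differences are log2 differences of Rsk2-KO minus WT, so 1 is a doubling. Probe sets with a mean log2 signal below the 40th percentile (a signal of 19.2) were left out of the test. This kept 13579 probe sets, 14 of the 16 members among them, with at least 1 for each gene. The trimmed mean signal of the arrays lay between 100.034 and 100.037. Both arrays with the number 3 lay far from the rest on the first principal component (scores of 31.2 and 36.3 against −6.57 to −23.8) and in their Actb 3′ to 5′ signal ratio (2.24 and 2.22 against 1.50 to 1.63). The Gapdh ratio did not set both apart: it was 0.774 on Rsk2-KO 3 and 0.823 on WT 3, against 0.719 to 0.783 on the rest. All 7 hippocampal neuron markers passed the filter; their summed signal was 1987 to 2157 on the Rsk2-KO-labelled arrays and 1715 to 1930 on the WT-labelled arrays. The summed signal of the 3 endothelial markers above the filter was 203 to 209.9 against 212 to 260.4. Only the sums of these lists parted by label. Marker by marker, the groups did not overlap in 0 of the 7 and 0 of the 3, against 13.9% of all 13579 probe sets. Of the neuron markers, 6 differences were above 0 and 1 below, and all 3 endothelial ones were below 0. The part of both lists in the results was not tested. In bulk tissue, fewer cells of a type and less RNA per cell cannot be told apart. Astrocyte, oligodendrocyte, microglial and interneuron sums overlapped between the labels. So did those of choroid plexus, thalamus, striatum and blood, of which at most 2 markers each passed the filter. The choroid plexus sum varied widely within a label, from 536 to 1663 on the Rsk2-KO-labelled arrays and from 703 to 2165 on the WT-labelled arrays. For the targeted gene, Rps6ka3, the Rsk2-KO-labelled arrays did not have the lower signal at its brightest probe set (94.8 ± 6.81 against 74.4 ± 14.8, SD, n = 3 each; log2 0.37, SE 0.19). The same held at its other probe set above the filter (28.0 ± 6.96 against 20.4 ± 10.1; log2 0.54, SE 0.37). The groups overlapped at both. Where the Rps6ka3 probe sets lie relative to the disrupted part is not known here, so every direction below rests on the labels.

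No clock gene passed the test. Of 14 member probe sets, 0 had an adjusted p under 0.05 in limma, as did 0% of the 13579 tested (lowest adjusted p = 0.661). At an unadjusted p under 0.05 there were 4 of 14, against a background of 6.9%. Of these, 2 (Nr1d2 and Dbp) were higher on the Rsk2-KO-labelled arrays, where the background was 4.07%, and 2 (Tef and Arntl) lower, against 2.83%. The groups did not overlap in 3 of 14, against 13.9% of all probe sets tested: 1 higher (Nr1d2, background 5.9%) and 2 lower (Tef and Arntl, background 7.95%). In all, 7 members had a difference above 0 and 7 below, with a median of 0.0017, against −0.02 for all probe sets. The median size regardless of sign was 0.31 in the members and 0.18 over all probe sets. With so few member probe sets, 1 array moved the count of 4 by more than 1.5 times: 1 was left when Rsk2-KO 1 was dropped and 2 when WT 1 was dropped. The share of all probe sets at that p was not taken with an array dropped.

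**Figure D1:**
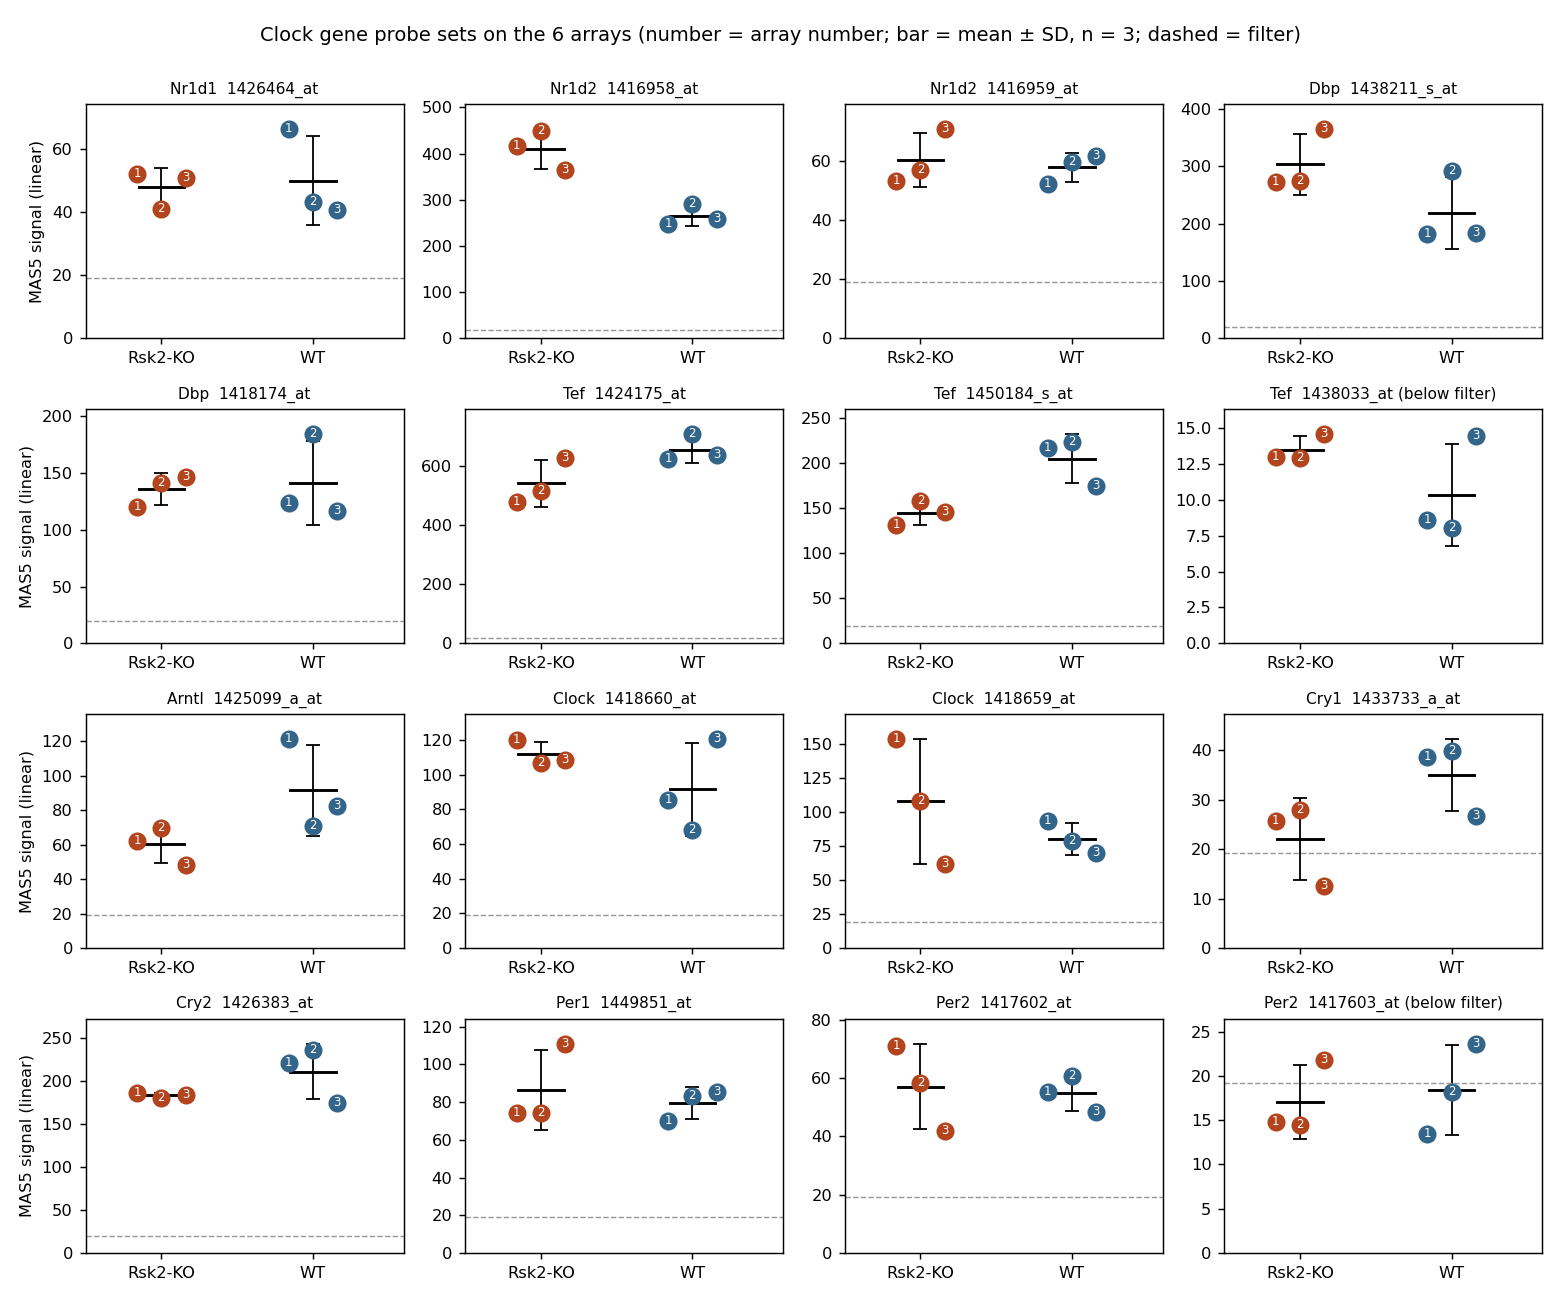
MAS5 signal (linear axis from 0) of the 16 clock gene probe sets on the 3 Rsk2-KO-labelled and 3 WT-labelled arrays; points carry the array number, bars are the mean ± SD (n = 3) and the dashed line is the filter at 19.2. Nr1d2 at 1416958_at lies at 365 to 449 on the Rsk2-KO arrays and at 248 to 291 on the WT arrays, with no overlap.

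Of the REV-ERB genes, Nr1d2 was higher at 1 of its 2 probe sets and Nr1d1 was not. Nr1d2, which encodes the repressor REV-ERB beta, gave signals of 416, 449 and 365 at 1416958_at on the Rsk2-KO-labelled arrays (numbers 1, 2 and 3). On the WT-labelled arrays it gave 248, 291 and 258. Every Rsk2-KO array was above every WT array. Mean signals of 409.9 ± 42.2 and 265 ± 22.6 (SD, n = 3 each) gave a 1.54-fold difference, log2 0.63 (SE 0.14, 95% interval 0.31 to 0.94, unadjusted p = 0.0016, adjusted p = 0.661). Arrays 1 and 2 alone gave 0.69, and the pair numbered 3 gave 0.50, of the same sign. Over 21 other settings the difference ran from 0.52 to 0.71 and the unadjusted p from 7.3e-05 to 0.0108; the adjusted p, from 0.0478 to 0.997, passed in 2 of them. These were the fit without both arrays numbered 3 (adjusted p = 0.0488) and a fit on 1 probe set per gene with array weights (adjusted p = 0.0478). The replicate spread was small: the within-group SD of 0.14 on the log2 scale was larger than in 15.4% of the probe sets tested.

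The other Nr1d2 probe set, 1416959_at, did not show this difference. Its signals were 53.3, 56.8 and 70.6 on the Rsk2-KO-labelled arrays and 52.2, 59.6 and 61.5 on the WT-labelled arrays, and the groups overlapped. The log2 difference was 0.05 (SE 0.19, 95% interval −0.37 to 0.48). This interval overlaps that of 1416958_at (0.31 to 0.94), and the difference between the probe sets was not tested. The platform annotation gives both probe sets the same transcript record. Which part of the transcript each reads was not analysed here.

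Nr1d1 encodes REV-ERB alpha, the partner repressor. It gave 52.1, 41.1 and 50.7 on the Rsk2-KO-labelled arrays and 66.2, 43.2 and 40.6 on the WT-labelled arrays. WT 1 was highest and WT 3 lowest, so the WT range enclosed all the Rsk2-KO arrays. Its log2 difference was −0.03 (SE 0.24, 95% interval −0.57 to 0.51, adjusted p = 0.976), and its sign turned without WT 1 (0.19) and without Rsk2-KO 2 (0.07).

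Of the PAR bZIP genes, Dbp had a higher mean signal at 1 of its 2 probe sets and Tef a lower one at both above the filter; none passed the adjusted test. Dbp, an output factor of the clock, gave 272, 274 and 364 at its brighter probe set 1438211_s_at on the Rsk2-KO-labelled arrays. The WT-labelled arrays gave 181, 291 and 183. WT 2 lay above 2 of the Rsk2-KO arrays, so the groups overlapped. This gave a log2 difference of 0.50 (SE 0.21, 95% interval 0.01 to 0.98, unadjusted p = 0.047, adjusted p = 0.661). Arrays 1 and 2 alone gave 0.25 and the pair numbered 3 gave 0.99, and the unadjusted p was under 0.05 in 10 of 20 other settings. At 1418174_at the signals were 120.2, 142 and 147 against 124, 184 and 116, a log2 difference of −0.03 (SE 0.20, 95% interval −0.48 to 0.43). That difference was 0.18 without WT 2 and 0.06 without Rsk2-KO 1, of opposite sign. On both probe sets WT 2 was the highest of the WT arrays.

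Tef had its clearest difference at the probe set of middle signal. At 1450184_s_at it gave 131, 158 and 145 on the Rsk2-KO-labelled arrays and 217, 224 and 174 on the WT-labelled arrays. All WT arrays were above all Rsk2-KO arrays, with WT 3 the closest. Mean signals of 145 ± 13.4 and 205 ± 26.9 (SD, n = 3 each) gave a 1.41-fold lower level, log2 −0.50 (SE 0.16, 95% interval −0.85 to −0.14, unadjusted p = 0.0118, adjusted p = 0.661). Arrays 1 and 2 alone gave −0.61, and the pair numbered 3 gave −0.26. The sign was the same in 18 of 18 other settings, and the unadjusted p was under 0.05 in 17 of them, all but the one without Rsk2-KO 1 (0.0529).

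At the brightest Tef probe set, 1424175_at, the signals were 478, 515 and 628 against 623, 706 and 635. Rsk2-KO 3 lay within the WT range and the other 2 Rsk2-KO arrays below it. In log2 terms the difference was −0.28 (SE 0.14, 95% interval −0.61 to 0.04, adjusted p = 0.661), with −0.42 from arrays 1 and 2 alone and −0.02 from the pair numbered 3. Another Tef probe set, 1438033_at, was below the filter at 13.0, 12.9 and 14.6 against 8.59, 8.04 and 14.4. In the fit with no filter it had the opposite sign, 0.43 (SE 0.45, adjusted p = 0.847).

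**Figure D2:**
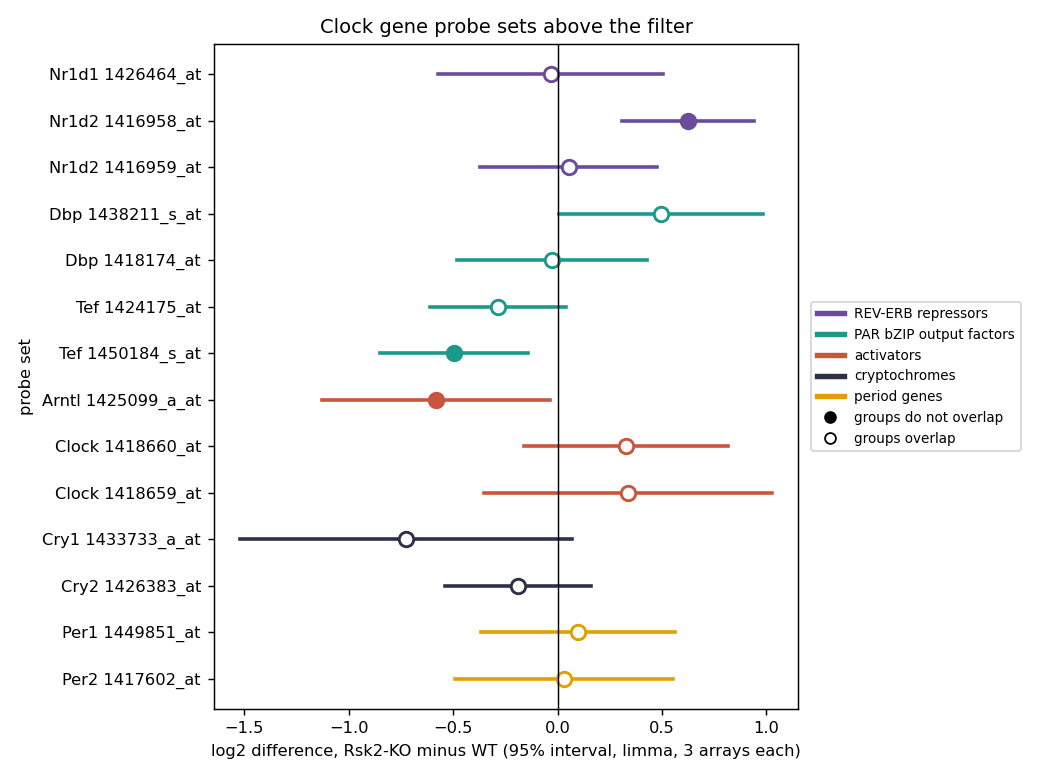
Log2 difference of Rsk2-KO minus WT for the 14 clock gene probe sets above the filter, with the 95% interval from limma (3 arrays in each group); colours give the role in the clock, and filled points mark groups that do not overlap. Nr1d2 (1416958_at) at 0.63, Tef (1450184_s_at) at −0.50 and Arntl at −0.58 are filled, and 10 of the 14 intervals include 0.

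Of the activators, Arntl had lower signals on the Rsk2-KO-labelled arrays and Clock did not. Arntl gave 62.4, 69.8 and 48.2 on the Rsk2-KO-labelled arrays and 121, 70.7 and 82.5 on the WT-labelled arrays. The groups did not overlap, but Rsk2-KO 2 and WT 2 were almost level. The mean signals, 60.1 ± 11.0 and 91.4 ± 26.4 (SD, n = 3 each), gave log2 −0.58 (SE 0.24, 95% interval −1.13 to −0.04, unadjusted p = 0.0386, adjusted p = 0.661). Arrays 1 and 2 alone gave −0.49, and the pair numbered 3 gave −0.77. WT 1 was far above the others, and without it the difference was −0.36 (unadjusted p = 0.155, adjusted p = 0.938, in a range of 0.107 to 0.997 over its 21 other settings). With 64 added to each signal before the logarithm, a step that shrinks differences of dim probe sets, it was −0.32.

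Clock, which encodes the partner of BMAL1, gave 120.0, 107 and 109 against 85.6, 68.2 and 120.4 at 1418660_at. WT 3 was level with the highest Rsk2-KO array and the other WT arrays lay below all of them. The log2 difference was 0.33 (SE 0.22, 95% interval −0.16 to 0.82, adjusted p = 0.688), 0.14 without WT 2 and 0.55 without WT 3. At 1418659_at the difference was about the same, 0.34 (SE 0.30, 95% interval −0.35 to 1.03), but the arrays ranked otherwise: 153, 108 and 61.8 against 93.0, 78.4 and 69.7. There Rsk2-KO 1 was highest and Rsk2-KO 3 lowest of all 6. Without Rsk2-KO 1 that difference was 0.03, and without Rsk2-KO 3 it was 0.69. With 64 added to each signal, the Clock differences were 0.19 and 0.22. Both Clock probe sets turned sign by array number, with 0.57 and 0.59 from arrays 1 and 2 alone against −0.15 and −0.17 from the pair numbered 3.

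Among the genes of the repressing arm, the cryptochromes had differences below 0 and the period genes lay near 0. Cry1, whose protein is a strong repressor of CLOCK and BMAL1, gave 25.8, 27.9 and 12.6 against 38.6, 39.8 and 26.6. Rsk2-KO 2 was above WT 3, so the groups overlapped, and Rsk2-KO 3 was below the filter signal of 19.2. Its log2 difference was −0.73, the largest in size of the 14 members above the filter (SE 0.35, 95% interval −1.52 to 0.07, unadjusted p = 0.0686, adjusted p = 0.661). It was −0.36 without Rsk2-KO 3, and −0.20 with 64 added to each signal. The within-group SD of 0.50 was larger than in 90.3% of the probe sets tested.

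Cry2, the second cryptochrome, gave 186, 179.9 and 183 against 221, 236 and 174. The Rsk2-KO arrays lay close together, above WT 3 and below the other WT arrays. This gave a log2 difference of −0.19 (SE 0.15, 95% interval −0.54 to 0.16, adjusted p = 0.722), with −0.32 from arrays 1 and 2 alone and 0.07 from the pair numbered 3.

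Per1, a period gene that light and CREB induce, gave 74.1, 74.5 and 111 on the Rsk2-KO-labelled arrays and 70.1, 83.4 and 85.4 on the WT-labelled arrays. Only Rsk2-KO 3 was above the WT range. In log2 terms the difference was 0.10 (SE 0.20, 95% interval −0.36 to 0.56, adjusted p = 0.897), and −0.09 without Rsk2-KO 3. The interval therefore leaves room for a difference of up to 0.56 on the log2 scale.

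Per2, the other period gene measured, gave 70.9, 58.4 and 41.9 against 55.3, 60.5 and 48.5 at 1417602_at. Rsk2-KO 1 was the highest array and Rsk2-KO 3 the lowest, with all WT arrays between. The log2 difference was 0.03 (SE 0.23, 95% interval −0.49 to 0.55, adjusted p = 0.977), and −0.14 without Rsk2-KO 1. Its dim probe set 1417603_at (14.8, 14.5 and 21.8 against 13.4, 18.1 and 23.6) was below the filter and had −0.10 (SE 0.39) in the fit with no filter.

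**Figure D3:**
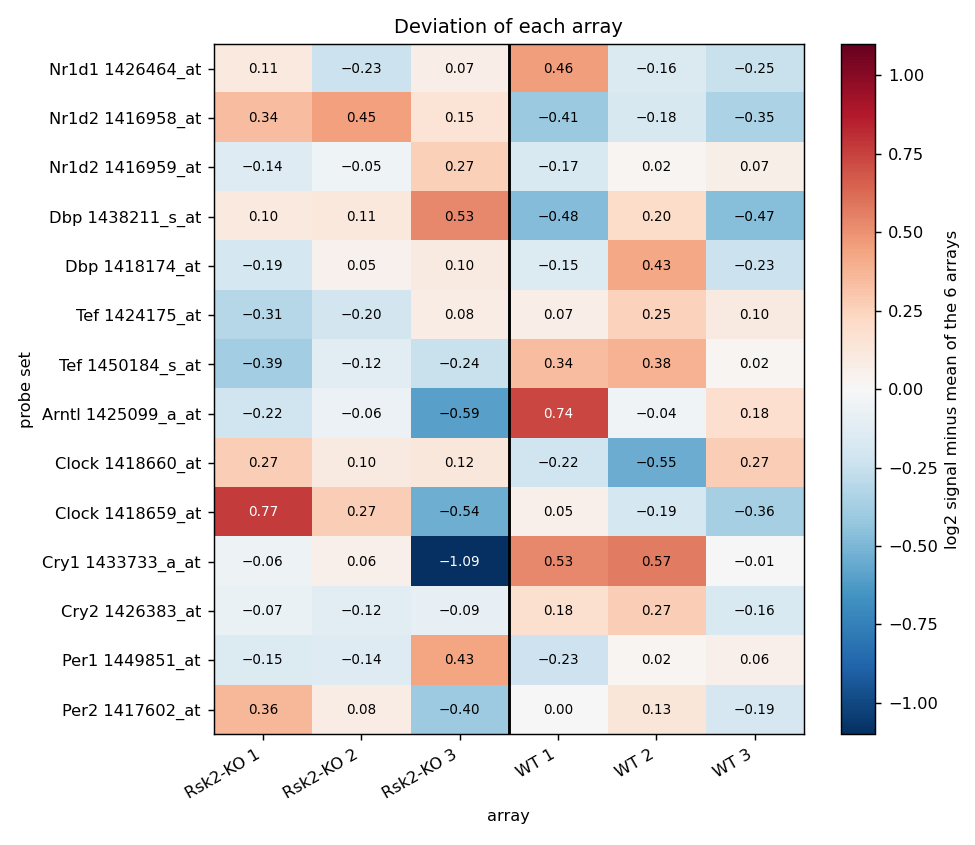
Log2 signal of each of the 14 probe sets above the filter on each array, minus the probe set's mean over the 6 arrays; red is above and blue below that mean, and the line parts the labels. Rsk2-KO 3 holds the lowest value, −1.09 for Cry1, and WT 1 has 0.74 for Arntl.

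Single arrays differed in their clock gene pattern within a label. Rsk2-KO 3 was the highest array for Per1, for Dbp at 1438211_s_at and for Nr1d2 at 1416959_at. It was the lowest for Cry1, Arntl, Per2 and Clock at 1418659_at. Its deviations from the mean of the 6 arrays were 0.43 for Per1 and 0.53 for Dbp, against −1.09 for Cry1 and −0.59 for Arntl. WT 1 was the highest array for Arntl and Nr1d1, at 0.74 and 0.46, and the lowest for 4 of 14. WT 2 was highest for 5 of 14, among them both Tef probe sets, Cry1 and Cry2. Rsk2-KO 2 was the array nearest to the middle, highest for 1 of 14 and lowest for 0. The median within-group SD was 0.29 in the members and 0.24 over all probe sets tested.

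The differences were also taken by array number. In 8 of 14 probe sets the pair numbered 3 had the opposite sign to arrays 1 and 2, and in 6 the same sign. The 6 were Nr1d2 at 1416958_at, Dbp at 1438211_s_at, both Tef probe sets, Arntl and Cry1. Nr1d1 had −0.21 and 0.32, Dbp at 1418174_at −0.21 and 0.33, and Per1 −0.04 and 0.38. Each label had 1 array numbered 3, so a fit of label by array number takes its replicate spread from arrays 1 and 2 only. With no replicate there, such a fit cannot settle whether a difference depends on the array number. A label by array number interaction, fitted in limma after the values were seen, passed an adjusted p of 0.05 in 0 of 14 members and in 0 of all 13579 probe sets. At an unadjusted p under 0.05 it had 1 of 14, against 10.4% of all. That 1 was Clock at 1418660_at (−0.71, SE 0.30, unadjusted p = 0.0433, adjusted p = 0.466).

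**Figure D4:**
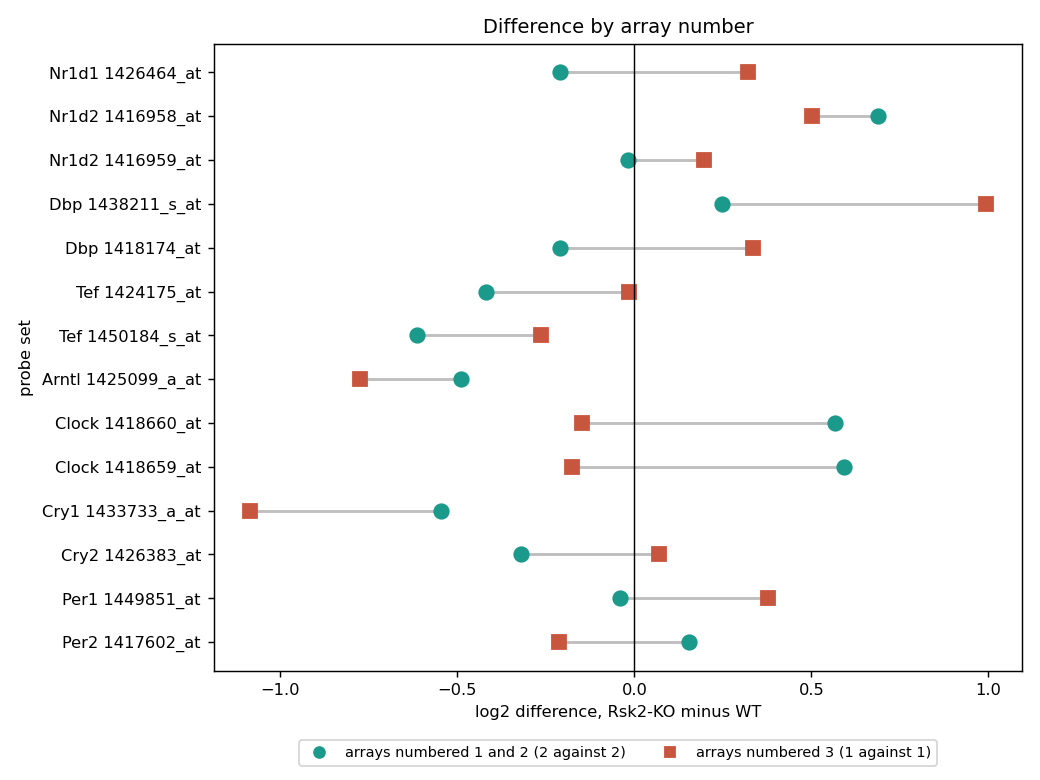
Log2 difference of Rsk2-KO minus WT from arrays 1 and 2 (circles, 2 against 2) and from the pair numbered 3 (squares, 1 against 1), per probe set. The symbols lie on the same side of 0 in 6 of 14 probe sets, with Cry1 at −0.55 and −1.08, and on opposite sides in 8, with both Clock probe sets above 0 by circle and below 0 by square.

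A further 26 genes of the clock and its close outputs were read from a list. Of these, 22 had a probe set with a single symbol and 19 had one above the filter. At the brightest probe set of each of the 19, 12 differences were above 0 and 7 below, with a median of 0.04. None passed the adjusted test in limma, 1 had an unadjusted p under 0.05, and the groups did not overlap in the same 1, or 5.26% against the background of 13.9%. That gene was Btrc, a ubiquitin ligase subunit that targets PER proteins for degradation. It gave 90.6, 89.3 and 102 on the Rsk2-KO-labelled arrays and 111, 122 and 136 on the WT-labelled arrays, lower on every Rsk2-KO array. Its log2 difference was −0.38 (SE 0.15, unadjusted p = 0.0358, adjusted p = 0.661), with −0.37 from arrays 1 and 2 alone and −0.41 from the pair numbered 3. Its other kept probe set had −0.49 (unadjusted p = 0.0442).

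Over all 39 kept probe sets of these genes, 19 differences were above 0 and 20 below, and the groups did not overlap in 4, or 10.3% against the same 13.9%; all 4 were lower on the Rsk2-KO-labelled arrays. They were both probe sets of Btrc and 2 of the 5 of Csnk1d. Csnk1d, a casein kinase gene whose product phosphorylates PER proteins, falls outside the rule for named genes by its brightest probe set (−0.34, SE 0.20, groups overlapping) and was singled out after its values were seen. At 1418889_a_at it gave 101, 100.1 and 118 against 174, 147 and 168 (log2 −0.62, SE 0.15, unadjusted p = 0.0028, adjusted p = 0.661). At 1449932_at it gave 189.7, 168 and 163 against 249.7, 219.6 and 194 (log2 −0.35, SE 0.15). Its remaining 3 probe sets overlapped, with differences also below 0, as were 7132 of all 13579 probe sets.

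Glucocorticoids reset peripheral and brain clocks and induce Per1 directly, so a list of 12 glucocorticoid-induced genes was read beside the members. All 12 passed the filter; by brightest probe set, 5 were above 0 and 7 below, with a median of −0.03. At the brightest probe set of each, none had an unadjusted p under 0.05 in limma, none passed the adjusted test, and the groups overlapped in all 12. Over all 25 kept probe sets of these genes, 13 differences were above 0 and 12 below, with a median of 0.0039. The groups did not overlap in 3, or 12% against 13.9% of all probe sets tested, each lower on the Rsk2-KO-labelled arrays. These were Fkbp5 at 1448231_at (log2 −0.38, SE 0.15, unadjusted p = 0.0297) and Nfkbia at 1448306_at (log2 −0.42, SE 0.16, unadjusted p = 0.0314) and 1449731_s_at (log2 −0.35, SE 0.19), all with an adjusted p of 0.661. They were singled out after their values were seen. At the brightest probe set the groups overlapped for both genes, with −0.02 (SE 0.16) for Fkbp5 and −0.30 (SE 0.21) for Nfkbia.

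**Figure D5:**
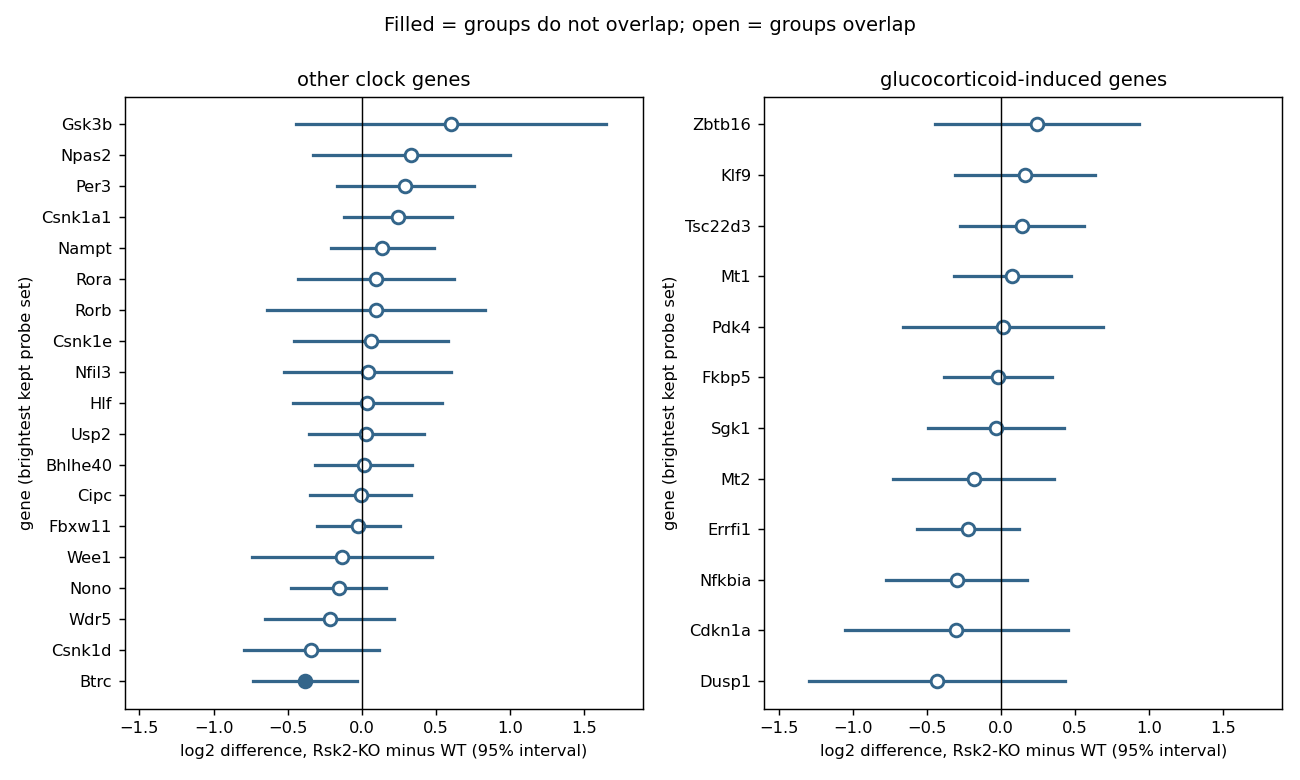
Log2 difference of Rsk2-KO minus WT with its 95% interval, at the brightest probe set above the filter, for 19 further clock genes (left) and 12 glucocorticoid-induced genes (right); filled points mark groups that do not overlap. Btrc at −0.38 is the 1 filled point, and the glucocorticoid-induced genes lie on both sides of 0.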

How the data were processed

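Per the submitters' processing notes, the deposited values are MAS5 signal intensity per probe set on a linear scale; no version or setting is stated in the labels. MAS5 scales each array to a common mean, so a difference in total RNA would be removed, and it is noisy near background. Per the labels' protocols, 6 micrograms of total RNA per array went into the biotinylated cRNA. Genes were named from the GEO platform annotation, and the 64 controls were not tested.

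Log2 signals were tested as deposited with limma 3.58.1 in R 4.3.3 (lmFit, eBayes with an intensity trend, group as the only term, two-sided, Benjamini-Hochberg over all kept probe sets), checked on simulated data. Motifs were matched in Python 3.11.15. Permuting labels exactly over 6 arrays gives p = 0.1 at best, so no such p is given; a p-value reflects variation among these pools only. Members and lists were chosen with earlier results of these data known. The genes named were all members, Rps6ka3, and list genes with an unadjusted p under 0.05 or no overlap at their brightest kept probe set (at most 10 further clock genes and 4 glucocorticoid-induced genes); Csnk1d, Fkbp5 and Nfkbia fall outside this rule and were added after their values were seen. A label by array number interaction was also added then. Alternatives changed the scaling, offset (16 or 64), filter, prior, weights, blocks, features and arrays.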

Additional observations from a re-analysis of the deposited data

How the results depend on the processing

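Of the clock gene probe sets, Nr1d2 at 1416958_at passed an adjusted p of 0.05 in 2 settings and no other did in any. Probe sets past the threshold over the whole table numbered 196 of 13579 without both arrays numbered 3 (1 a member) and 1 of 13579 with the replicate block (0 members). At gene level with array weights, a setting chosen after seeing the data, 51 of 7867 passed, among them 1 of 10 members. The gene level kept the brightest probe set of each gene, so Nr1d2 at 1416959_at was not in it. Member probe sets at an unadjusted p of 0.05 numbered 7 with array weights, 2 without _x_at and _s_at probe sets, and 1 to 6 with 1 array left out. This count was added after seeing the data. For Rsk2-KO against WT, the share of all probe sets at that p was taken only in the main fit (6.9%). That share can differ by setting, so the member counts of other settings, here and below, cannot be set against it. Same-numbered arrays deviated together with correlations of 0.096 (number 1), 0.461 (number 2) and 0.486 (number 3). The last 2 were the highest between the labels. The labels name no pairs and number 1 had little match, so the main fit held no term for the numbers. The replicate block changed no member's call and gave 6 members at an unadjusted p of 0.05. A term for the arrays numbered 3 also gave 6, with 0 past the adjusted threshold (Nr1d2 at 1416958_at, adjusted p = 0.239 in limma). Rsk2-KO 1 deviated most like WT 2 (0.265), not WT 1. The sign turned in no setting for 9 member probe sets and in at least 1 setting for 5, all with a difference of at most 0.10 in size. Per2 (1417602_at) was −0.0016 with median centring, and Nr1d2 (1416959_at) −0.019 and Per1 −0.042 without both arrays numbered 3. With 1 array left out the ranges were −0.17 to 0.19 for Nr1d1, −0.066 to 0.14 for Nr1d2 (1416959_at), −0.15 to 0.18 for Dbp (1418174_at), −0.095 to 0.20 for Per1 and −0.14 to 0.24 for Per2. Where a setting changed the value of a probe set, the cause was not tested. The median 95% interval of a member was 0.95 wide on the log2 scale, which limits the precision with 3 arrays in each group.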
